A study of Arabidopsis thaliana with 24 samples.

Results

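Transcripts of 10 Arabidopsis thaliana genes were followed: 8 enzymes of jasmonate synthesis (LOX2, LOX3, LOX4, AOS, AOC1, AOC2, AOC3 and OPR3) and VSP1 and VSP2, genes of vegetative storage proteins that serve as readouts of jasmonate signalling. They were chosen by locus id and make up 10 of the 32678 loci in the read count table. The loci are AT3G45140 (LOX2), AT1G17420 (LOX3), AT1G72520 (LOX4), AT5G42650 (AOS), AT3G25760 (AOC1), AT3G25770 (AOC2), AT3G25780 (AOC3), AT2G06050 (OPR3), AT5G24780 (VSP1) and AT5G24770 (VSP2). Messenger RNA came from seedlings of 2 genotypes, the cpd mutant and a triple mutant of the receptor genes BRI1, BRL1 and BRL3. The alleles of the triple mutant are bri1-701, brl1 and brl3 (spelled brl1-701 in the genotype label), and no allele is named for cpd. Each genotype was sampled at 7 and at 24 days, untreated or treated with brassinolide (BL), an active brassinosteroid, which gives 8 groups of 3 libraries. The cpd mutant has a defect in brassinosteroid synthesis and keeps the receptors, whereas the triple mutant is impaired in perceiving the hormone. All groups thus carry a brassinosteroid defect, and no wild type was analysed here. The sources used here state neither the dose nor the duration of BL. They also leave unsaid whether replicate libraries represent independent plants. Every p-value therefore covers the variation among the libraries at hand, which could be technical.

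Jasmonates are lipid-derived hormones made from linolenic acid released in plastids. Lipoxygenases oxygenate the fatty acid, allene oxide synthase and allene oxide cyclase turn the product into oxophytodienoic acid, and OPR3 reduces that compound in the peroxisome before beta-oxidation yields jasmonic acid. The isoleucine conjugate of the hormone binds COI1 with a JAZ repressor, JAZ is degraded, and MYC2 and related bHLH factors then switch on target genes, among them VSP2 and the synthesis genes themselves. In seedlings and leaves jasmonate is known for wound and insect defence and for slowing growth, and in flowers for stamen fertility.

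The genes fall into families of close copies, which bears on both the counts and the comparisons. AOC1, AOC2 and AOC3 lie next to each other on chromosome 3, on the plus strand, at chr3:9403779-9405338, chr3:9406669-9408071 and chr3:9409160-9411090 (coordinates of RefSeq TAIR10.1). VSP1 and VSP2 lie near each other on the minus strand of chromosome 5, at chr5:8507590-8509201 and chr5:8500468-8502224. LOX3 and LOX4 are at chr1:5977323-5981521 and chr1:27308513-27312756, LOX2 is at chr3:16525245-16529352, AOS at chr5:17097564-17099595 and OPR3 at chr2:2359114-2362375. Coding sequences were 90.3% identical between AOC1 and AOC2, 82.7% between AOC1 and AOC3, 82.4% between AOC2 and AOC3, 89.5% between VSP1 and VSP2, and 80.6% between LOX3 and LOX4. LOX2 was 60.4% identical to LOX3 and 59.2% to LOX4. The longest identical coding stretch was 73 bases between AOC1 and AOC3, 54 bases between VSP1 and VSP2 and 24 bases between LOX3 and LOX4. The treatment of reads that match more than 1 copy is unstated, and values of single AOC and VSP copies are therefore less certain than those of AOS or OPR3. None of the 10 genes overlaps another annotated gene.

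The start regions of the 3 AOC genes and of LOX3 and LOX4 are shown as a description. These copies were picked with their counts known, and the part of the start regions in the levels was not tested. Each window holds 250 bases before and 50 bases after the annotated start in RefSeq TAIR10.1, on the strand of the gene, which is the plus strand for these 5 genes. Capitals mark the longest run of bases shared by AOC1 and AOC2 and by LOX3 and LOX4, and nothing is marked in AOC3. The windows are chr3:9403529-9403828, chr3:9406419-9406718 and chr3:9408910-9409209 for the 3 neighbouring AOC genes, and chr1:5977073-5977372 and chr1:27308263-27308562 for the lipoxygenase pair.
AOC1: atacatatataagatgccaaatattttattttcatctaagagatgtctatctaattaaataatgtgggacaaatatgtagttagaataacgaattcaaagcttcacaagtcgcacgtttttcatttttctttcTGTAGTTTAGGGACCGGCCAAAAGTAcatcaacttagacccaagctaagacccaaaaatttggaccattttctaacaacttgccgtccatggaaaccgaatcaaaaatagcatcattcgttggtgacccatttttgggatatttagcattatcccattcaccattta
AOC2: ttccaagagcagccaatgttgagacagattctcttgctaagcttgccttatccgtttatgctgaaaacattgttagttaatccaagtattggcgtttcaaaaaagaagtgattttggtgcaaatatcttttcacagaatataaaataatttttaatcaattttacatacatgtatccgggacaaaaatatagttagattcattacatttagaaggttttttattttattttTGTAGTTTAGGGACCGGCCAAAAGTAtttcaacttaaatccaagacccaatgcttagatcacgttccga
AOC3: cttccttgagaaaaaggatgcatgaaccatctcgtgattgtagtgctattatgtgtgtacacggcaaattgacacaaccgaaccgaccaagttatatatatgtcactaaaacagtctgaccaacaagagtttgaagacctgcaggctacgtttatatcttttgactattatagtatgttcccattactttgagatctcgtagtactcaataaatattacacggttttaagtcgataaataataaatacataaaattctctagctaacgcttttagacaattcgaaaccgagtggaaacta
LOX3: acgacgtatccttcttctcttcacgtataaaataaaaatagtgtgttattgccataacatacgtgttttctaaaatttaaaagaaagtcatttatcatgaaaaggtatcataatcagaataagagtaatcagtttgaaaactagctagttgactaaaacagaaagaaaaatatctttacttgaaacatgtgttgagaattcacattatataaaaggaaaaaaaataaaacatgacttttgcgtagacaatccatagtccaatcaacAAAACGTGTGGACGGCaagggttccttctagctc
LOX4: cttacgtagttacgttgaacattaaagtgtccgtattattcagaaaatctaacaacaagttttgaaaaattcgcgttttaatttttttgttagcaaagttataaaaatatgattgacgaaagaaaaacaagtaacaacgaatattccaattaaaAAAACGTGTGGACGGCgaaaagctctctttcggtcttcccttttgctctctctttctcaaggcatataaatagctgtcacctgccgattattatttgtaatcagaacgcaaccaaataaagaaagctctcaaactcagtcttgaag

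AOC1 and AOC2 shared a run of 26 bases, which began at position -117 from the start in AOC1 and at position -19 in AOC2. The window of AOC3 shared no run longer than 8 bases with AOC1 and 9 bases with AOC2. LOX3 and LOX4 shared a run of 16 bases, at position 17 after the start in LOX3 and at position -96 in LOX4. That run holds AACGTG and CGTGTG, which overlap. VSP1 and VSP2 shared 23 bases. Motifs were searched on both strands in windows of the same length at 27443 protein-coding genes. The G-box CACGTG, a site of bHLH factors such as MYC2, was in the window of AOS and of 7.68% of all genes. Its variant AACGTG was in the windows of LOX3, LOX4, AOC1, AOC2 and VSP1 and of 8.95% of all, and CACATG was in LOX2 and LOX3 and in 12.9% of all. Of the brassinosteroid response elements bound by BZR1 family factors, CGTGTG was in LOX3 and LOX4 and in 6.52% of all genes, and CGTGCG in AOC1 and in 1.96% of all. In AOC1 the CGTGCG match overlaps the AACGTG match. A match describes the letters of the window only.

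Libraries held 10180880 to 12531699 counts at 7 days and 17243503 to 20563151 at 24 days. Replicates lay much closer together at 7 days, with a biological coefficient of variation of 2.01%, against 15% at 24 days. Pairs of replicates differed by 1.13 to 1.51 times the counting variance at 7 days and by 6.38 to 59.1 times at 24 days. The label seedling was checked against organ markers. The 5 leaf markers summed to 2601 to 4283 CPM (counts scaled to the TMM-normalised library size) in a library, and the 11 root markers to 81.9 to 219 CPM. Of the 11 root markers SHR, SCR, WOX5, RHD2, CASP2, PHO1 and NRT2.1 had counts in all 12 libraries of 7 days, whereas the root hair marker COBL9 had 0 counts in all 12, EXPA7 in 5, CASP1 in 7 and ESB1 in 1. At 24 days COBL9, EXPA7 and CASP2 had 0 counts in 1 library each, and the other root markers had counts in all. Of the 9 flower markers 7 had counts in all 12 libraries of 24 days, from 1 count to 109, and MYB21 had 0 counts in 5 and MYB24 in all 12. At 7 days PI and SEP3 had counts in all 12 libraries, and the other flower markers had 0 counts in 2 to 11. All 10 genes passed the filter on low counts at both ages.

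Per kilobase of annotated exon, AOC2 and AOS stood at the top and VSP1, LOX3 and LOX4 near the bottom of the 10 genes. In untreated 7-day cpd, levels per kilobase were 220.0 ± 4.92 CPM for AOC2 (SD, n = 3), 156 ± 4.38 for AOS, 77.9 ± 1.63 for AOC3, 75.5 ± 0.745 for OPR3, 67.5 ± 1.86 for LOX2 and 65.5 ± 4.76 for AOC1. VSP2 had 18.6 ± 0.701 CPM per kilobase, VSP1 13.6 ± 1.47, LOX3 11.9 ± 0.777 and LOX4 5.88 ± 0.172. The libraries of LOX2 and AOC1 and those of VSP1 and LOX3 overlapped, and those of AOC3 and OPR3 met at 76.0 CPM per kilobase, so the order within these pairs is not resolved. In untreated 7-day triple mutant AOC2 and AOS were closer, at 119 ± 2.99 and 108 ± 1.92 CPM per kilobase. In untreated 24-day triple mutant the order opened with AOC2 (133 ± 85.9) and AOC3 (109 ± 72.4), whose ranges overlapped widely.

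At 7 days most of the 10 genes had lower levels with BL in cpd. Of the 10 genes 8 fell and 1 rose by the quasi-likelihood test of edgeR, with p-values adjusted over 18378 genes by the Benjamini-Hochberg method (threshold 0.05), where 29.5% of all genes fell and 27.7% rose. The median log2 fold change was -0.82 over the 10 genes and -0.00159 over all genes tested. In such bulk samples, fewer cells of a type and less RNA per cell cannot be told apart.

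LOX2, the plastid lipoxygenase that supplies much of the jasmonate of wounded leaves, fell most. Its level was 214, 226 and 219 CPM in untreated cpd and 93.8, 91.0 and 94.9 CPM with BL, so every treated library lay below every untreated one. This is a change of log2 -1.24 ± 0.033 (SE), or 2.35-fold (edgeR's quasi-likelihood test, Benjamini-Hochberg adjusted p = 1.18e-44). LOX3 had 39.5, 34.7 and 36.4 CPM untreated and 19.7, 19.7 and 19.0 CPM with BL (log2 -0.93 ± 0.070). LOX4, which acts with LOX3 in stamen fertility, had 17.9, 18.5 and 17.4 CPM and 9.52, 8.53 and 9.15 CPM (log2 -0.98 ± 0.10). All 3 lipoxygenase genes fell without overlap between groups.

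AOS, the only allene oxide synthase gene of Arabidopsis, fell less. It had 306, 321 and 322 CPM in untreated cpd and 259, 264 and 257 CPM with BL (log2 -0.28 ± 0.028). The allene oxide cyclase genes parted. AOC3 went from 131, 131 and 126 to 59.4, 68.3 and 61.6 CPM (log2 -1.03 ± 0.042, edgeR adjusted p = 5.89e-34), a 2.05-fold fall without overlap. AOC2 stood at 282, 294 and 284 CPM untreated and 284, 292 and 304 CPM with BL, groups that overlap, and its change of log2 0.03 ± 0.028 did not pass the test (95% interval -0.02 to 0.09). AOC1 had 79.2, 82.9 and 71.8 CPM and 79.4, 85.2 and 90.1 CPM, also overlapping, and its rise of log2 0.12 ± 0.047 passed edgeR's test at adjusted p = 0.0244. That call was lost without replicate 3 of untreated cpd (log2 0.07, adjusted p = 0.276), without replicate 3 of BL-treated cpd (log2 0.08, adjusted p = 0.195) and in DESeq2 (adjusted p = 0.104).

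OPR3, the peroxisomal reductase, had 129, 129.7 and 127 CPM in untreated cpd and 108, 108 and 99.5 CPM with BL (log2 -0.29 ± 0.037). Both storage protein genes fell. VSP2 went from 29.3, 27.3 and 27.8 to 12.1, 14.4 and 14.7 CPM, or 2.05-fold (log2 -1.04 ± 0.080). VSP1 went from 20.3, 18.1 and 16.3 to 10.4, 11.5 and 11.9 CPM (log2 -0.71 ± 0.10). In these 3 genes the treated libraries lay below all untreated ones. Groups did not overlap for 8 of the 10 genes, nor for 61.2% of all genes tested. With 1 spread estimated from all 24 libraries, 4 of the 8 falls passed, those of LOX2, AOC3, VSP1 and VSP2, and the rise of AOC1 did not. That spread, used here and below, was 10.9%, against 2.01% for the 7-day libraries alone. The share of all genes called by that fit in this comparison is not given here.

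**Figure D1:**
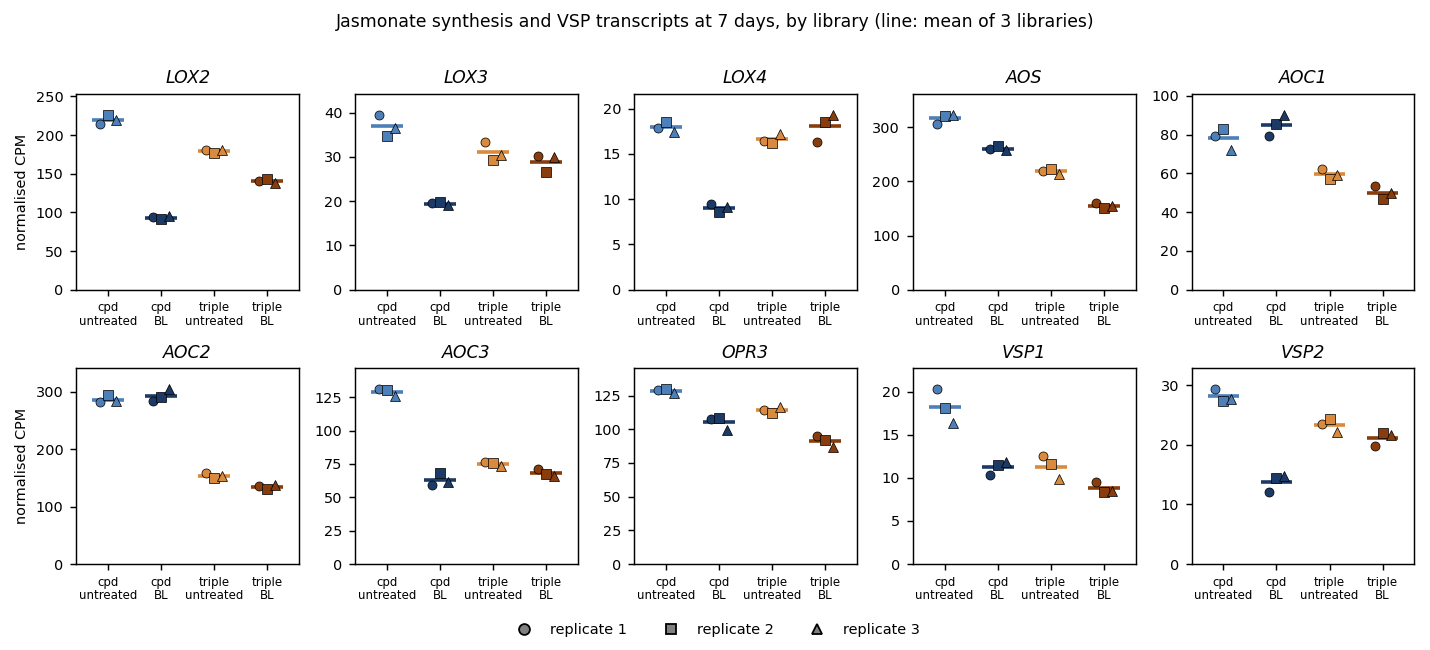
Level of each of the 10 genes in every 7-day library, in normalised CPM on a linear axis from 0, with 1 panel per gene, marker shape for replicate number and a line at the mean of 3 libraries. LOX2, LOX3, LOX4, AOC3 and VSP2 drop with BL in cpd, with levels of LOX2 from 213.9 to 226.0 CPM untreated and from 91.0 to 94.9 CPM treated, while AOC1 and AOC2 do not.

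The triple mutant at 7 days also had lower levels with BL, by smaller amounts for most genes. Of the 10 genes 7 fell and none rose by edgeR's test, against 11% lower and 11.4% higher among all genes, and the median was log2 -0.22 (all genes -0.000266). LOX2 had 180.1, 177 and 181 CPM untreated and 141, 143 and 138 CPM with BL (log2 -0.35 ± 0.033, edgeR adjusted p = 2.17e-14). AOS had 219, 222 and 214 and 161, 151 and 154 CPM, and its log2 -0.49 ± 0.032 was the largest change among the 10 in this genotype. Treated and untreated libraries of both genes stood apart, as did those of 8 of the 10 genes and of 34.5% of all genes. OPR3 changed by log2 -0.32 ± 0.040, to 95.2, 92.1 and 86.9 CPM, a change close in size to that in cpd. AOC1 and AOC2 changed by log2 -0.26 ± 0.056 and -0.20 ± 0.035.

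LOX3, LOX4 and VSP2, which fell in cpd, did not pass the test in the triple mutant. Their changes were log2 -0.11 ± 0.069 (95% interval -0.24 to 0.03), 0.12 ± 0.086 (-0.05 to 0.29) and -0.14 ± 0.078 (-0.29 to 0.01). The falls of AOC3 (log2 -0.15 ± 0.047, edgeR adjusted p = 0.0165) and VSP1 (-0.36 ± 0.12, adjusted p = 0.0171) were lost in DESeq2, with adjusted p = 0.06 and 0.0794. Both were also lost without replicate 1 of the untreated triple mutant, or without replicate 2 or replicate 3 of the treated one (adjusted p from 0.0537 to 0.127). No fall in this genotype passed when 1 spread was estimated from all 24 libraries.

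The difference between the 2 responses was tested directly as an interaction at 7 days. The BL effect was higher, that is less negative, in the triple mutant for LOX2 (log2 difference 0.88 ± 0.047), LOX3 (0.82 ± 0.10), LOX4 (1.10 ± 0.13), AOC3 (0.89 ± 0.063) and VSP2 (0.90 ± 0.11). It was lower in the triple mutant for AOS (-0.21 ± 0.043), AOC1 (-0.38 ± 0.073) and AOC2 (-0.23 ± 0.045). These 5 higher and 3 lower effects passed edgeR's test (largest adjusted p = 3.38e-05), where 22.3% of all genes were higher and 18.7% lower. OPR3 (log2 difference -0.03 ± 0.055, 95% interval -0.14 to 0.08) and VSP1 (0.34 ± 0.15, 0.04 to 0.64) did not pass. VSP1 passed without replicate 3 of untreated cpd or replicate 1 of the untreated triple mutant (adjusted p = 0.0289 and 0.0356). With 1 spread from all 24 libraries no difference passed, with adjusted p from 0.116 to 0.791 for the 8 genes.

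**Figure D2:**
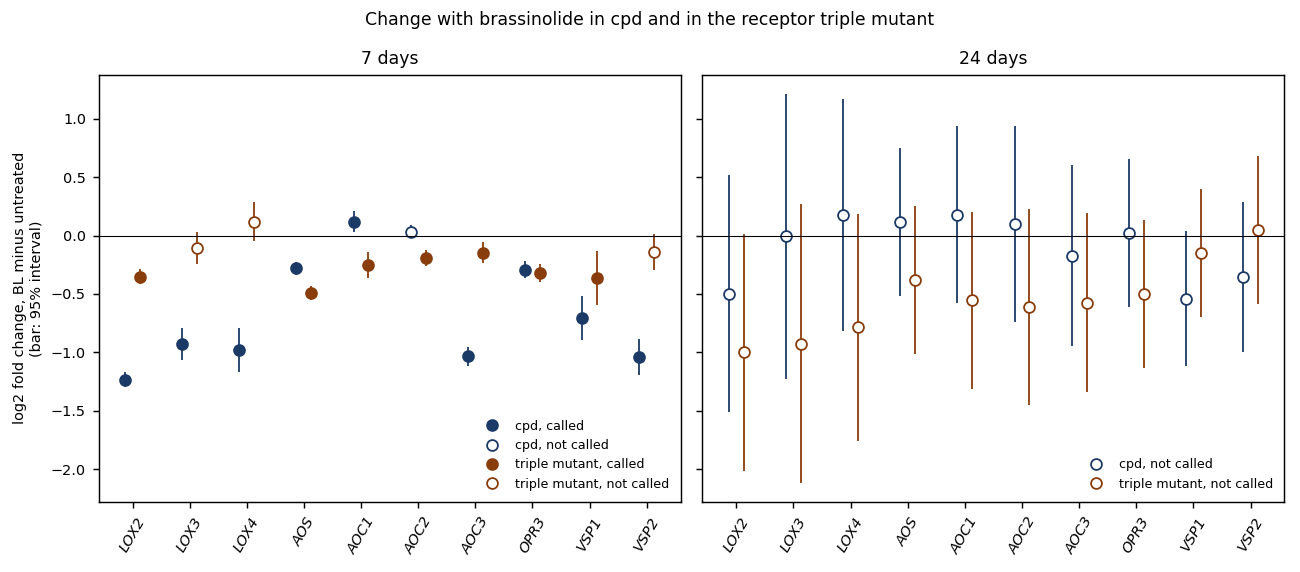
Log2 fold change with BL in cpd (blue) and in the triple mutant (brown) for each gene, at 7 days on the left and 24 days on the right, with 95% intervals; filled points passed edgeR's test. At 7 days LOX2, LOX3, LOX4, AOC3 and VSP2 lie between -1.24 and -0.93 in cpd and between -0.35 and 0.12 in the triple mutant, and at 24 days the intervals are wide and no point is filled.

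Without BL, the 7-day triple mutant had lower levels than cpd for 9 of the 10 genes and higher for none by edgeR's test (all genes: 15% lower, 12.9% higher; median log2 -0.34 over the 10 and 0.00221 over all). AOC2 differed most, with 282, 294 and 284 CPM in cpd and 158, 150.4 and 154 CPM in the triple mutant (log2 -0.89 ± 0.031, edgeR adjusted p = 1.20e-36). AOC3 had 131, 131 and 126 and 76.3, 75.9 and 73.9 CPM (log2 -0.78 ± 0.041), and VSP1 20.3, 18.1 and 16.3 and 12.5, 11.5 and 9.90 CPM (log2 -0.70 ± 0.10). The libraries of both genotypes stood apart for all 10 genes, LOX4 included, as they did for 39.2% of all genes. AOS differed by log2 -0.53 ± 0.029 and AOC1 by -0.39 ± 0.051. LOX2, LOX3, OPR3 and VSP2 differed by log2 -0.29, -0.25, -0.17 and -0.27. LOX4 did not pass (log2 -0.11 ± 0.086, 95% interval -0.28 to 0.06), and none passed with 1 spread from all 24 libraries.

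With BL at 7 days, 5 genes were higher in the triple mutant than in cpd and 5 were lower (all genes: 27.5% higher, 25.9% lower; median log2 -0.05 over the 10 and -0.000823 over all). Higher were LOX4 (log2 0.99 ± 0.10), VSP2 (0.63 ± 0.086), LOX2 (0.59 ± 0.036), LOX3 (0.57 ± 0.075) and AOC3 (0.11 ± 0.047). LOX4 had 9.52, 8.53 and 9.15 CPM in treated cpd and 16.3, 18.5 and 19.3 CPM in the treated triple mutant. These groups did not overlap, nor did those of 58% of all genes. The call for AOC3, at edgeR adjusted p = 0.0471, did not hold with DESeq2 size factors, without the filter on low counts, in DESeq2, or without any of 4 of the 6 libraries (adjusted p from 0.0567 to 0.308). Those libraries were replicates 1 and 3 of treated cpd (log2 0.07 and 0.09) and replicates 1 and 2 of the treated triple mutant (0.08 and 0.11). Lower were AOC2 (log2 -1.12 ± 0.032), AOC1 (-0.76 ± 0.052), AOS (-0.74 ± 0.031), VSP1 (-0.35 ± 0.11) and OPR3 (-0.20 ± 0.040). AOC2 stood at 284, 292 and 304 CPM in treated cpd against 136, 131 and 138 CPM. With 1 spread from all 24 libraries AOS, AOC1 and AOC2 remained lower and no gene was higher. The lipoxygenase genes and VSP2 thus lay above cpd and AOS, AOC1, AOC2, OPR3 and VSP1 below it.

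The 3 AOC genes were also set against each other as shares of their summed counts, a measure in which the level of the whole family cancels. At 7 days AOC3 held 26.2% ± 0.44 of the AOC counts in untreated cpd (SD, n = 3) and 14.3% ± 0.93 with BL. In the triple mutant its share was 26.1% ± 0.61 untreated and 26.9% ± 0.86 with BL. AOC2 held 58.0% ± 0.82 and 66.5% ± 0.83 in cpd, and 53.3% ± 0.29 and 53.3% ± 1 in the triple mutant. Every treated cpd library had a smaller AOC3 share (at most 15.3%) than every untreated one (at least 25.8%), whereas the 2 groups of the triple mutant overlapped.

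At 24 days the shares of the 2 genotypes also stood apart in the libraries at hand. This is a description, since the test below cannot pass the threshold and no shares of other gene families stand beside it. AOC3 held 29.8% ± 2.8 in untreated cpd and 25.7% ± 2.9 in treated cpd, against 43.3% ± 3.1 and 44.7% ± 3.3 in the triple mutant. AOC2 held 49.8% ± 4.9 and 51.6% ± 1.8 in cpd, and 41.1% ± 2.1 and 39.6% ± 4 in the triple mutant. Every triple mutant library of 24 days had a larger AOC3 share (40.0% to 47.0%) than every cpd library (23.0% to 31.6%). For 3 against 3 libraries an exact permutation test (two-sided) cannot go below p = 0.1, which it gave for AOC1, AOC2 and AOC3 in both genotype comparisons at 24 days and in the BL comparison of 7-day cpd. The exact test gave the same p = 0.1 between the 7-day genotypes for AOC1 and AOC2 without BL and for AOC2 and AOC3 with BL. Between untreated 7-day genotypes the AOC3 share gave p = 0.8, and for BL in the 7-day triple mutant p = 0.2, by the same exact test.

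**Figure D3:**
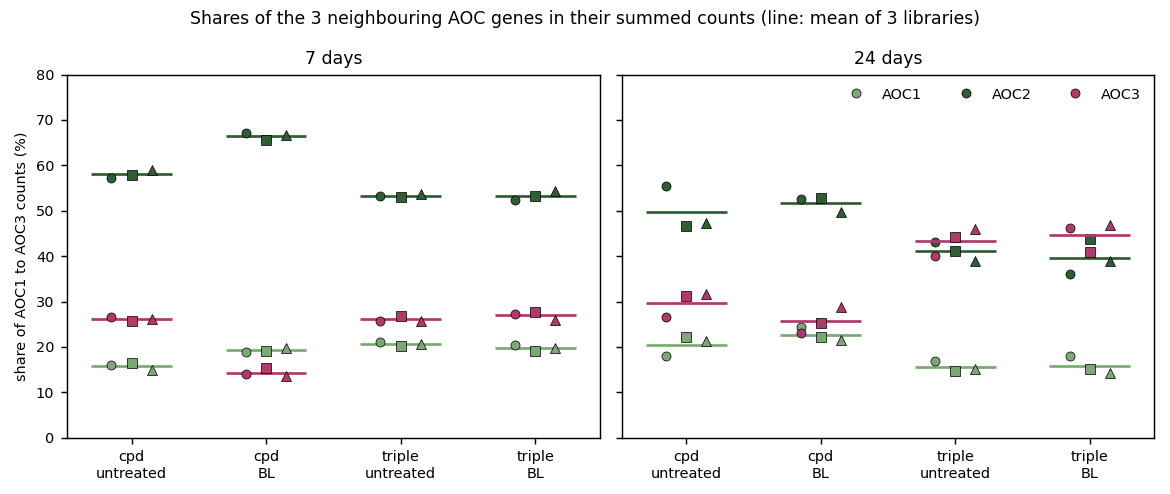
Share of AOC1, AOC2 and AOC3 in the summed counts of the 3 genes, in percent, per library (points) and as mean of 3 libraries (lines), at 7 days on the left and 24 days on the right. AOC3 falls from 26.2% to 14.3% with BL in 7-day cpd, and at 24 days it reaches 43.3% and 44.7% in the triple mutant against 29.8% and 25.7% in cpd.

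Other genes of the pathway moved in part with these 10 at 7 days. The counts for BL in cpd stand beside 29.5% of all genes lower and 27.7% higher. In cpd with BL all 10 turnover genes tested (of 11 listed), which oxidise, methylate or sulfate jasmonates or cleave their conjugates, were lower. CYP94B3, which hydroxylates the isoleucine conjugate, changed by log2 -1.88 ± 0.045, and the jasmonate oxidase gene JOX4 by -0.92 ± 0.024. Of 15 other synthesis genes 10 were lower and 3 higher, and the smallest adjusted p belonged to the acyl-CoA oxidase ACX1 (log2 -0.90 ± 0.023) and the beta-oxidation enzyme MFP2 (-0.59 ± 0.027). Of 10 perception genes and transcription factors 6 were lower and 2 higher, with the repressor JAM1 at log2 -1.04 ± 0.059 and JAV1 at -1.08 ± 0.061. Of 12 output genes tested 7 were lower and 1 higher, among them the NAC factor ANAC019 (-1.47 ± 0.036) and JR1 (-0.95 ± 0.028). Of 11 JAZ repressor genes 9 were lower and none higher, with JAZ1 at log2 -1.12 ± 0.025 and JAZ6 at -0.55 ± 0.034. The 5 relatives outside jasmonate synthesis were LOX1, LOX5, HPL1, OPR1 and OPR2. Of these 2 were lower, LOX1 (-1.23 ± 0.048) and OPR1 (-0.45 ± 0.026), and 2 were higher. All these calls are edgeR's with Benjamini-Hochberg adjustment (adjusted p of at most 8.37e-24 for the genes named). With 1 spread from all 24 libraries the counts lower fell to 6 turnover, 7 other synthesis, 5 perception, 6 output and 2 JAZ genes. The share of all genes called by that fit is not given for this comparison, so these counts cannot be set against it.

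In the 7-day triple mutant with BL, where 11% of all genes were lower and 11.4% higher, 7 of 10 turnover genes were lower, ST2A, a sulfotransferase, and JOX4 with the smallest adjusted p. They changed by log2 -0.48 ± 0.021 and -0.38 ± 0.024. Lower were also 8 of 11 JAZ genes, 7 of 12 output genes (1 higher), 4 of 15 other synthesis genes (1 higher) and 4 of 10 perception genes (1 higher). The relatives OPR1 and LOX1 went the other way from cpd, at log2 0.66 ± 0.025 and 0.35 ± 0.039, with 2 of 5 higher and 1 lower. The interaction was largest in turnover for CYP94B3 (log2 difference 1.74 ± 0.060, edgeR adjusted p = 1.16e-37). Over the lists, beside 22.3% of all genes higher and 18.7% lower, it was higher and lower for 7 and 2 of 10 turnover genes, 9 and 3 of 15 other synthesis genes, 4 and 1 of 10 perception genes, 6 and 2 of 11 JAZ genes, 6 and 2 of 12 output genes, and 2 and 1 of 5 relatives. Without BL the triple mutant was lower than cpd for 10 of 11 JAZ genes and 9 of 12 output genes, with none higher (all genes 15% lower, 12.9% higher). Lower and higher were 7 and 2 of 10 turnover genes, 5 and 2 of 15 other synthesis genes, and 4 and 2 of 10 perception genes, MYC2 among the lower ones (log2 -0.32 ± 0.034), and no relative was called. With BL the triple mutant was higher and lower for 6 and 3 of 10 turnover genes, 6 and 4 of 15 other synthesis genes, 4 and 3 of 10 perception genes, 3 and 4 of 11 JAZ genes, 4 and 5 of 12 output genes, and 2 and 1 of 5 relatives, beside 27.5% and 25.9% of all genes.

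Markers of other tissues and states moved with BL in 7-day cpd as well. The counts for BL in cpd stand beside 29.5% of all genes lower and 27.7% higher. Of 8 genes of touch and early wound responses 7 were lower and none higher (median log2 -1.11). Their summed level went from 4149 to 4235 CPM to 2627 to 2683 CPM. Most of that sum was TCH3, with 28604 to 42511 counts in a 7-day library, against at most 4452 for the next, WRKY40. WRKY40 changed by log2 -2.52 ± 0.033 and ZAT10 by -2.13 ± 0.034. The 5 leaf markers summed to 3223 to 3334 CPM untreated and 4204 to 4283 CPM with BL, with 4 higher and none lower, and all 4 senescence markers tested were lower. Of 7 root markers tested 1 was higher and 3 lower (summed level 88.6 to 93.1 and 81.9 to 86.6 CPM), and of 2 flower markers tested 1 was lower. In the triple mutant the touch markers summed to 4131 to 4235 CPM untreated and 4413 to 4510.4 CPM with BL (2 of 8 higher, 1 lower), and all 5 leaf markers were higher. There 2 of 7 root markers were higher and 1 lower, 2 of 4 senescence markers were lower, and no flower marker was called. Of all genes 11% were lower and 11.4% higher in that comparison. Between untreated genotypes 1 touch marker was higher and 5 lower in the triple mutant, and with BL 6 were higher and 1 lower. Among all genes 12.9% were higher and 15% lower without BL, and 27.5% and 25.9% with BL. The part of these tissues and states in the results of the 10 genes was not tested.

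At 24 days the libraries of a group differed widely for the synthesis genes. None of the 10 genes passed edgeR's test in any comparison of the fit of the 24-day libraries alone without a replicate block. In the fit of all 24 libraries some passed between genotypes, as given below. With libraries of the same replicate number paired as a block, AOS and AOC3 passed between untreated genotypes (7.21% of all genes called). In that fit VSP1, AOC3 and VSP2 passed between genotypes with BL (18.5% of all genes called). The spread was largest in the untreated triple mutant. LOX2 there had 194, 492 and 106 CPM in replicates 1, 2 and 3, against 72.8, 87.7 and 134 CPM in untreated cpd. Replicate 2 was above all cpd libraries, and replicate 3 lay within their range. LOX3 had 94.5, 191 and 27.2 CPM in the untreated triple mutant and 22.4, 30.1 and 28.7 CPM in cpd. LOX4 had 91.3, 146 and 28.1 CPM and 18.5, 27.9 and 28.9 CPM. For both genes replicates 1 and 2 were far above cpd and replicate 3 was among the cpd values.

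Across the 10 genes the ratio of the highest to the lowest of the 3 untreated triple mutant libraries ran from 1.22 to 7.04, with a median of 3.28, whereas its median over all genes tested in that group was 1.25. In untreated cpd the same ratio had a median of 1.38 over the 10 genes and 1.2 over all. Replicate 2 was the highest library for 8 of the 10 genes in the untreated triple mutant and for all 10 in the treated one. The exceptions in the untreated group were VSP1 and VSP2, which were highest in replicate 3. The summed level of the 8 synthesis genes was 958, 2076 and 568 CPM in the untreated triple mutant, 671, 1082 and 526 CPM with BL, 462, 531 and 558 CPM in untreated cpd and 395, 585 and 541 CPM in treated cpd. In both triple mutant groups the order of the libraries was the same, from replicate 2 down to replicate 3.

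**Figure D4:**
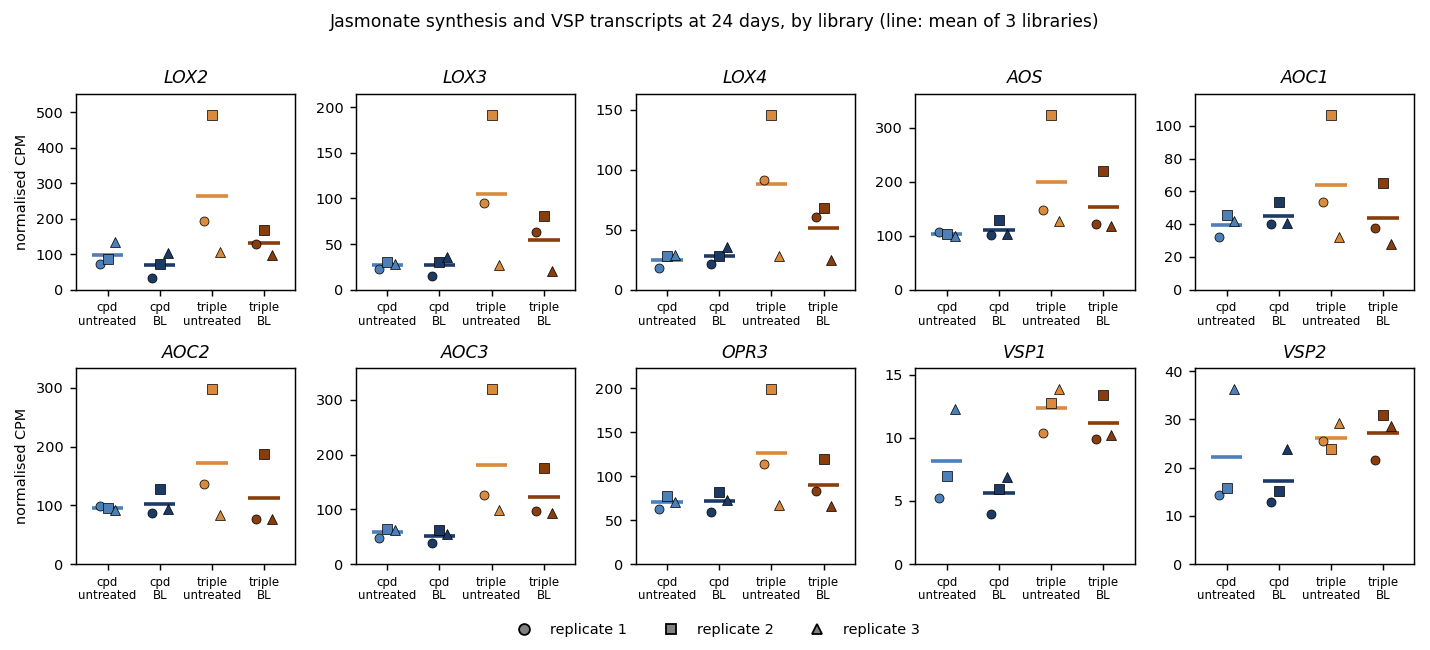
Level of each of the 10 genes in every 24-day library, in normalised CPM on a linear axis from 0, with marker shape for replicate number and a line at the mean of 3 libraries. Replicate 2 (squares) of the untreated triple mutant is far above the other libraries for the synthesis genes, with 492.5 CPM of LOX2 and 319.1 CPM of AOC3, and replicate 3 (triangles) of that group is among the untreated cpd libraries for LOX2, LOX3 and LOX4 but above them for AOC3.

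Without BL at 24 days all 10 genes had a positive log2 difference between triple mutant and cpd, with a median of 0.90 (all genes -0.02), but none passed edgeR's test, which called 1.04% of all genes. At unadjusted p under 0.05 there were 6 of the 10 and 3809 of all 19731 genes. AOC3 had 127, 319 and 98 CPM in the triple mutant and 47.5, 63.7 and 62.1 CPM in cpd, without overlap (log2 1.65 ± 0.40, 3.13-fold, edgeR adjusted p = 0.0787). AOS had 147, 324 and 126 CPM and 107, 103 and 98.6 CPM, also without overlap (log2 0.96 ± 0.33, adjusted p = 0.151). These were the 2 genes of the 10 whose groups stood apart, as 22.5% of all genes did. LOX3, LOX4 and LOX2 had log2 differences of 1.95 ± 0.63, 1.81 ± 0.51 and 1.43 ± 0.52 (adjusted p = 0.136, 0.106 and 0.173 by edgeR). AOC2, OPR3, AOC1, VSP1 and VSP2 had 0.85 ± 0.43, 0.85 ± 0.32, 0.69 ± 0.39, 0.60 ± 0.28 and 0.24 ± 0.32.

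At 24 days libraries with the same replicate number deviated together, so ratios within a number were also taken. Here and below, counts of genes that agree in all 3 numbers have no share of all genes beside them and are descriptive only. The triple mutant was higher in all 3 numbers for AOS, AOC3 and VSP1, with AOC3 ratios of 2.66, 5.01 and 1.58. For the other 7 genes it was higher in replicates 1 and 2 and lower in replicate 3, as for LOX2 with 2.67, 5.62 and 0.786. With the replicate number as a block edgeR called AOS (log2 0.83, adjusted p = 0.0409) and AOC3 (1.50, adjusted p = 0.0104), 2 of 10 where the blocked fit called 7.21% of all genes in either direction. DESeq2 called LOX4 and AOC3 (adjusted p = 0.0353 and 0.0178), and 1045 of all genes. With 1 spread from all 24 libraries LOX2, LOX3, LOX4, AOS, AOC3 and OPR3 passed edgeR's test (adjusted p from 0.00148 to 0.0251). That spread, 10.9%, lies below the 15% of the 24-day libraries, and the number of all genes so called is given at the end. Without replicate 3 of the untreated triple mutant 4 genes passed edgeR's test, LOX3 (log2 2.40), LOX4 (2.24), AOC3 (1.95) and OPR3 (1.15), as did 1123 of all genes, against 206 with that library. With the block and without replicate 2 of every group, an alternative chosen after seeing the data, none passed, and 19 genes of all tested did.

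With BL at 24 days the triple mutant was again compared with cpd, and none of the 10 genes passed edgeR's test, which called 11.1% of all genes. VSP1 came nearest, with 9.90, 13.4 and 10.2 CPM in the triple mutant and 3.96, 5.96 and 6.90 CPM in cpd, without overlap (log2 0.99 ± 0.29, edgeR adjusted p = 0.0503). AOC3 had 97.3, 174 and 93.3 CPM and 38.0, 61.4 and 54.5 CPM, also without overlap (log2 1.25 ± 0.40, adjusted p = 0.0696). VSP2 had 21.6, 31.0 and 28.7 CPM and 12.9, 15.1 and 23.9 CPM, which overlap (log2 0.65 ± 0.33). Groups stood apart for 2 of the 10 genes and for 31.7% of all. At unadjusted p under 0.05 there were 2 of the 10 and 5241 of all 19731 genes. DESeq2 called VSP1 (adjusted p = 0.00963), 1 of the 10, and 2794 of all genes.

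VSP1 is thus a gene whose call turns on the setting. It passed with DESeq2 size factors (adjusted p = 0.0499) and without the filter on low counts (0.0476) in edgeR. With 1 spread from all 24 libraries VSP1 (log2 0.98, edgeR adjusted p = 0.00353) and AOC3 (1.235, adjusted p = 0.00454) passed. The number of all genes called by that fit is given at the end. With the replicate block VSP1 (log2 1.02, edgeR adjusted p = 0.00714), AOC3 (1.2, adjusted p = 0.00767) and VSP2 (0.69, adjusted p = 0.0485) passed, 3 of 10 against 18.5% of all genes in either direction. The triple mutant was higher in all 3 replicate numbers for AOS, AOC3, VSP1 and VSP2, with VSP1 ratios of 2.50, 2.25 and 1.48. AOC3 alone passed with the block and without replicate 2 of every group (log2 1.06, adjusted p = 0.0193), where 1701 of all genes did. AOC1 and AOC2 had log2 differences of -0.05 ± 0.39 and 0.14 ± 0.43, and the lipoxygenases LOX2, LOX3 and LOX4 0.92 ± 0.52, 1.03 ± 0.62 and 0.85 ± 0.50. AOS and OPR3 had 0.46 ± 0.32 and 0.33 ± 0.32.

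The response to BL at 24 days was not resolved for these genes. In cpd 9.72% of all genes were called and none of the 10 (0 at unadjusted p under 0.05, 0 by DESeq2), with a median of log2 0.01 over the 10 and -0.00255 over all. LOX2 had 72.8, 87.7 and 134 CPM untreated and 32.6, 72.1 and 104 CPM with BL (log2 -0.50 ± 0.52, 95% interval -1.51 to 0.52). VSP1 had 5.20, 6.98 and 12.3 CPM and 3.96, 5.96 and 6.90 CPM (log2 -0.54 ± 0.29, 95% interval -1.12 to 0.04). Both groups overlap, although within replicate numbers LOX2, AOC3, VSP1 and VSP2 were lower with BL in all 3 and LOX4 higher in all 3. For LOX2 the ratios were 0.449, 0.822 and 0.777. AOC3 had a log2 change of -0.17 ± 0.40 (95% interval -0.95 to 0.60), an interval that includes 0. Its 7-day value was -1.03. The difference between ages did not pass edgeR's test without a replicate block (adjusted p = 0.223), and the fit with the block is given below.

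In the 24-day triple mutant edgeR called 0% of all genes for BL (773 of 19731 at unadjusted p under 0.05) and none of the 10 (0 at unadjusted p under 0.05, 0 by DESeq2). Log2 changes ran from -1.0 ± 0.52 for LOX2 to 0.05 ± 0.32 for VSP2, with a median of -0.57 (all genes -0.00295). The 8 synthesis genes were lower with BL in all 3 replicate numbers, and VSP1 and VSP2 in 2 of 3. The synthesis genes varied together between these libraries, and no share of all genes is given, so this agreement is not read as a response. The LOX2 ratios were 0.671, 0.340 and 0.933, the smallest of them in replicate 2. The block brought none of the 10 past the test (adjusted p of at least 0.667).

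The BL effect in the triple mutant minus that in cpd passed for none of the 10 genes at 24 days, where 2.75% of all genes were called (0 of 10 at unadjusted p under 0.05, and 0 by DESeq2). The differences ran from log2 -0.96 ± 0.71 for LOX4 to 0.40 ± 0.46 for VSP2. Their 95% intervals were wide, from -1.93 to 0.93 for LOX2, which includes the 7-day difference of 0.88.

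Between ages, the BL effect in cpd was higher at 24 than at 7 days in sign for all 10 genes (median log2 0.53, all genes -0.01), but none passed edgeR's test, which called 9.68% of all genes (0 of 10 at unadjusted p under 0.05). LOX4 (1.16 ± 0.60), LOX3 (0.91 ± 0.69) and AOC3 (0.86 ± 0.42) had the largest log2 differences. With the replicate block AOC3 passed (log2 0.83, edgeR adjusted p = 0.0475), 1 of 10 against 14.8% of all genes. Without replicate 3 of untreated 24-day cpd, in which VSP2 stood at 36.2 CPM against 14.4 and 15.8 CPM, VSP2 passed with log2 1.23 (adjusted p = 0.00286) in place of 0.67. In the triple mutant the age difference was called for 0.0752% of all genes and for none of the 10 (0 at unadjusted p under 0.05). This fit takes 1 spread for both ages, 10.9%. That lies below the 15% of the 24-day libraries and above the 2.01% of the 7-day libraries.

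Levels at the 2 ages were normalised apart and compare only roughly. The summed level of the 8 synthesis genes was 1199 to 1237 CPM in untreated cpd at 7 days and 462 to 558 CPM at 24 days. In the untreated triple mutant it was 841 to 859.7 CPM and 568 to 2076 CPM. VSP1 and VSP2 together had 44.1 to 49.6 CPM in untreated cpd at 7 days and 19.6 to 48.5 CPM at 24 days, the highest value being that of replicate 3. In the untreated triple mutant they had 32.1 to 36.0 and 36.0 to 43.0 CPM.

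Genes of touch and early wound responses varied between the same 24-day libraries. The 8 markers summed to 4655, 6079 and 3179.9 CPM in replicates 1, 2 and 3 of the untreated triple mutant, and to 4272, 4533 and 3312 CPM with BL. In cpd they summed to 3080.0, 3375 and 2510.0 CPM untreated and 3004, 2872 and 2805 CPM with BL. The order from replicate 2 to replicate 3 in both triple mutant groups was that of the synthesis genes. In cpd the orders differed. Replicate 3 of untreated cpd was highest for the synthesis genes (558 CPM) and lowest for the touch markers (2510.0 CPM). Replicate 1 of treated cpd was lowest for the synthesis genes (395 CPM) and highest for the touch markers (3004 CPM). Between untreated genotypes 2 of the 8 were called higher and none lower (median log2 1.57), TCH2 (log2 1.47 ± 0.23) and ZAT10 (1.67 ± 0.27, edgeR adjusted p = 0.0168 for both), and 6 with the replicate block (all genes 1.04% and 7.21%). With BL 2 of 8 were called higher, WRKY40 (log2 1.92 ± 0.32) and ZAT10 (1.58 ± 0.27), and 3 with the block (all genes 11.1% and 18.5%). The part of a touch or wound response in the levels of the 10 genes was not tested.

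The JAZ repressor genes summed to 1586, 2594 and 1071 CPM in the untreated triple mutant and 948, 983 and 857 CPM in untreated cpd. Of 12 JAZ genes 1 was called higher in that comparison, JAZ1 (log2 1.28 ± 0.24, edgeR adjusted p = 0.0318), and 5 with the block (JAZ1, JAZ3, JAZ5, JAZ7 and JAZ8), where all genes called were 1.04% and 7.21%. The 5 leaf markers did not follow this order, with 3084, 2937 and 2675 CPM in the untreated triple mutant and 3548, 3192 and 2601 CPM in untreated cpd. None of the 5 leaf markers, 11 root markers, 7 flower markers or 4 senescence markers tested was called between untreated genotypes, and 2 root markers, RHD2 and PHO1, passed with the block.

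**Figure D5:**
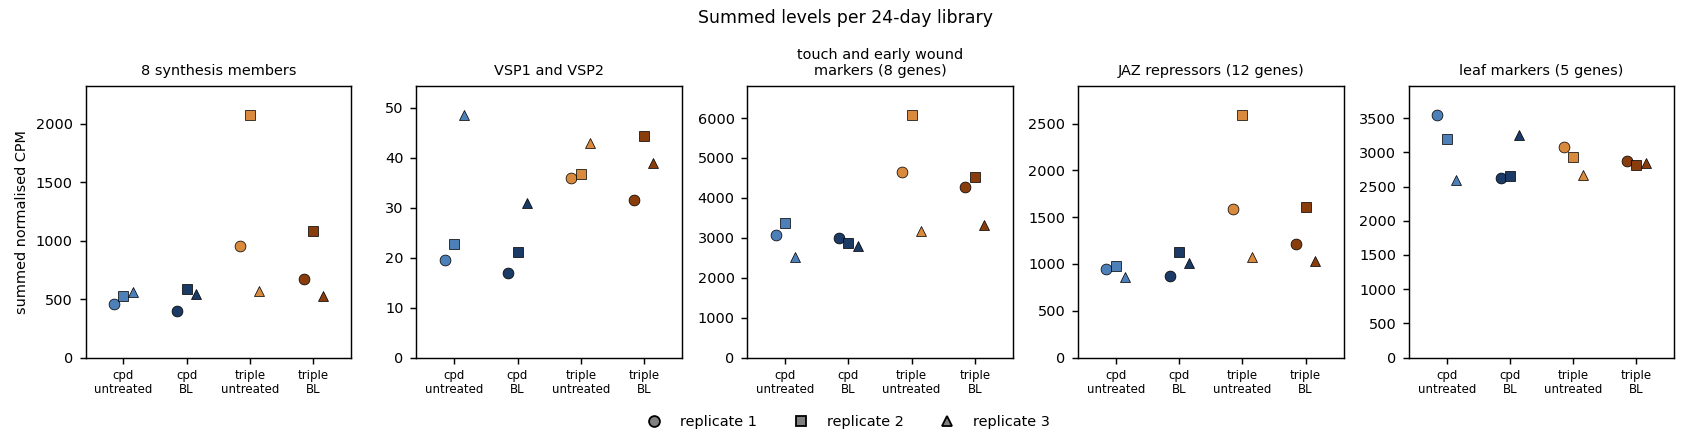
Summed normalised CPM per 24-day library, on linear axes from 0, of the 8 synthesis genes, of VSP1 and VSP2, of 8 touch and early wound markers, of 12 JAZ genes and of 5 leaf markers, with marker shape for replicate number. Replicate 2 of the untreated triple mutant is the highest library in the panels of the synthesis genes (2076 CPM), the touch markers (6079 CPM) and the JAZ genes, and not in those of the VSP or leaf genes.

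The other pathway lists gave few calls at 24 days. Between untreated genotypes none of 15 other synthesis, 10 turnover, 10 perception, 11 output or 5 relative genes passed, where the block called 1, 2, 4, 2 and 1 of them and 7.21% of all genes. Among those was MYC2, the central bHLH factor, with 259, 419 and 104 CPM in the triple mutant and 98.5, 129 and 70.8 CPM in cpd. With BL, where 11.1% of all genes were called, the triple mutant was higher than cpd for 2 other synthesis genes (ACX1, log2 0.67 ± 0.10, and PLIP3, 0.92 ± 0.21), 1 turnover gene (CYP94B3, 0.99 ± 0.23), 2 perception genes (TPL, 0.31 ± 0.080, and JAM2, 0.30 ± 0.080), 1 output gene (ANAC055, 0.82 ± 0.14) and 1 relative (LOX1, 0.73 ± 0.17). No JAZ gene passed there, and 2 of 12 did with the block, which called 18.5% of all genes. Of the markers, 3 of 4 senescence genes were higher, and no leaf, root or flower marker was called, where the block called 4 root markers.

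For BL in 24-day cpd, where 9.72% of all genes were called, 2 other synthesis genes (ACX1, log2 -0.57 ± 0.10, and PLIP3, -0.84 ± 0.21) and 1 output gene (ANAC055, -0.64 ± 0.14) were lower, and no gene of the turnover, perception, JAZ or relative lists was called. The touch marker TCH2 was higher (log2 0.90 ± 0.23) and 3 of 4 senescence markers were lower. In the 24-day triple mutant no gene of any list was called for BL, with or without the block. The interaction at 24 days was called for 2 senescence markers, ORE1 and PAO, and for no pathway gene. With the block, which called 15.5% of all genes for BL in cpd and 6.11% for the interaction, the call in cpd was gained by CYP94C1 (higher), JOX3, LOX1 and WRKY40 (lower), and the interaction by PLIP3 (higher), CYP94C1 (lower) and NYE1 (higher).

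Between ages the BL effect in cpd was higher at 24 days for 3 other synthesis genes (and lower for 1, FAD3), 1 turnover gene (CYP94B3, log2 difference 1.45 ± 0.25), 2 perception genes (JAV1, 0.76 ± 0.16, and JAM2, 0.42 ± 0.091), 1 JAZ gene, 2 output genes, 1 relative (LOX1, 0.80 ± 0.18), 3 touch markers and 1 root marker. It was lower for 2 leaf markers, and no flower or senescence marker was called. With the block, which called 14.8% of all genes against 9.68% without it, it was higher for 4 other synthesis, 3 turnover, 3 perception, 4 JAZ and 4 output genes and 6 touch markers, and lower for 4 leaf markers. In the triple mutant no gene of any list was called between ages, with or without the block.

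The 10 genes moved together to different degrees over the libraries of an age. At 24 days the correlation of each gene with the mean of the other 9, over 12 libraries, ran from 0.44 (VSP2) and 0.67 (VSP1) to 0.95 (AOC3 and OPR3), on standardised log2 CPM. At 7 days it ran from 0.28 (LOX4 and AOC1) to 0.96 (AOC3). These values describe 12 libraries that share group and replicate number. VSP1 and VSP2 therefore followed the mean of the other 9 genes least at 24 days, and LOX4, AOC1 and AOC2 (0.35) at 7 days.

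The genes whose log2 CPM followed the average of the 10 most closely over the 12 libraries of 24 days were AT4G24380 (r = 0.99, rho = 0.89), AT1G61890, TIN1, TBP1, CPK29, NAI1, AT3G47550 and AT1G56140, the last 7 at r = 0.97 each. These 8 were picked for the highest r among 19721 genes, and their rho ran from 0.85 to 0.96. All 8 were highest in replicate 2 of the untreated triple mutant. AT4G24380 reached 65.6 CPM there, and NAI1, a bHLH factor of endoplasmic reticulum bodies, from 13.5 to 55.7 CPM. At 7 days the closest genes were HCT (r = 0.996, rho = 0.97), TSA1, C4H, CAF1a, 4CL1, TRA2, MAPKKK19 and RDUF1 (r of at least 0.988), all highest in a library of untreated cpd. HCT, C4H and 4CL1 are enzymes of the phenylpropanoid pathway, and C4H ranged from 624 to 1364 CPM. The 8 genes of 7 days were picked for the highest r among 18368 genes, and their rho ran from 0.85 to 0.97. No gene was among the closest 8 at both ages.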

How the data were processed

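Messenger RNA of seedlings was measured in 24 libraries, 3 per group (Trizol extraction and a TruSeq RNA kit, per the labels' protocols). The authors deposited whole-number read counts per locus; Trimmomatic 0.36, HISAT2 2.1.0, HTSeq 0.9.1 and TAIR10 are named per the submitters' processing notes, and their settings and strand handling are not stated there. The 10 genes and all gene lists were chosen with earlier results of these data known.

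Counts were fitted per age with edgeR 4.0.16 in R 4.3.3 (TMM, genes kept by filterByExpr at a minimum count of 10, quasi-likelihood test, Benjamini-Hochberg adjustment over all genes tested, threshold 0.05), with the 4 groups of the age as terms. Differences between ages came from 1 fit of all 24 libraries. Standard errors were derived from the F statistic, and 95% intervals are 1.96 standard errors on each side. The 1.96 is a normal quantile, so these intervals are narrow for so few libraries. Comparisons within an age share libraries. Levels are CPM on TMM library sizes. The code was tested on simulated counts. All 10 genes are named, and for each list up to 2 called genes with the smallest adjusted p.

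At 24 days deviations of libraries with the same replicate number correlated in each of the 12 pairs of libraries compared (r from 0.13 to 0.62), so the number was taken to pair them, and a fit with it as a block is given where a call changes. Alternatives were DESeq2 1.42.0 and its size factors, no filter on low counts, the block, each library left out, replicate 3 of every 24-day group left out, 1 fit of both ages and limma 3.58.1. Gene positions, coding sequences and start regions came from RefSeq TAIR10.1, and the count table itself holds no coordinates.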

Additional observations from a re-analysis of the deposited data

Results flagged for a closer look

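At 7 days the BL effect differed between the genotypes by a direct test of the interaction (edgeR's quasi-likelihood test, Benjamini-Hochberg adjusted p). The log2 difference, triple mutant minus cpd, was 0.88 for LOX2 (adjusted p = 1.01e-26), 0.82 for LOX3 (9.82e-11), 1.10 for LOX4 (3.71e-11), 0.89 for AOC3 (3.24e-20) and 0.90 for VSP2 (3.06e-10). It was -0.21 for AOS (adjusted p = 3.38e-05), -0.38 for AOC1 (1.73e-05) and -0.23 for AOC2 (1.92e-05). The lipoxygenase genes, AOC3 and VSP2 thus differed in one direction and AOS, AOC1 and AOC2 in the other. Groups of 3 libraries are too small for the search for single libraries that stand apart.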

How the results depend on the processing

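No called change of the 10 genes turned its sign under any alternative run. Leaving out 1 library at a time, the genes called higher ranged from 0 to 1 (BL in 7-day cpd), 0 to 4 (untreated genotypes, 24 days) and 0 to 1 (age difference, cpd). All genes called ranged from 917 to 1628 (BL in 24-day cpd), 15 to 1123 (untreated genotypes, 24 days), 1032 to 2037 (genotypes with BL, 24 days), 326 to 679 (24-day interaction), 1228 to 2433 (age difference, cpd) and 0 to 257 (age difference, triple mutant).

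With 1 spread for all 24 libraries the 7-day genes called were 0 higher and 4 lower (BL in cpd), 0 lower (BL in the triple mutant), 0 lower (untreated genotypes), 0 higher and 3 lower (genotypes with BL), and 0 and 0 (interaction); all genes called were 390 for BL in the triple mutant, 1031 and 6484 for the genotypes without and with BL, and 3536 for the interaction. At 24 days that fit called 6 and 2 of the 10 genes higher without and with BL, and 4118 (BL in cpd), 2816, 4703 (genotypes) and 2186 (interaction) of all genes. Its spread of 10.9% lies above the 2.01% of the 7-day libraries and below the 15% of the 24-day ones. DESeq2 called 0 higher for BL in 7-day cpd, 2427 and 3343 of all genes for BL in the 7-day triple mutant and for untreated genotypes, and at 24 days 2 and 1 of the 10 higher between genotypes without and with BL, and 1045, 2794 and 1061 of all genes (genotypes without and with BL, interaction). DESeq2 size factors and no filter on low counts each called 1 higher between genotypes with BL at 24 days, and 2200 and 2001 of all genes.

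With the replicate block at 24 days 2 and 3 of the 10 were higher between genotypes without and with BL, and 1 between ages in cpd. The block called 3050 (BL in cpd), 1422 and 3654 (genotypes), 1205 (interaction), 2946 and 77 (ages, cpd and triple mutant) of all genes, and limma 48 for the last. At 7 days same-numbered libraries did not correlate (r from -0.026 to 0.041), and the block moved no call of the 10 genes. Without replicate 3 of every 24-day group 4 and 4 of the 10 were higher between genotypes without and with BL, and 1066 (BL in cpd), 1029 (untreated genotypes), 1508 (genotypes with BL) and 255 (interaction) of all genes were called. With the block and without replicate 2 of every 24-day group, chosen after seeing the data, 1 of the 10 was higher between genotypes with BL, and 19 (untreated genotypes), 1701 (genotypes with BL) and 328 (interaction) of all genes were called. The causes of these changes were not tested, and fits that leave out libraries also hold fewer of them. Libraries of 24 days held more counts than those of 7 days, and the spread between them was larger (biological coefficient of variation 15% against 2.01%). The part of depth or spread in what passed was not tested.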
